A study of Mus musculus with 7 samples.

Results

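The antioxidant genes of the NRF2 pathway were examined in mouse liver after injection of a synthetic tsRNA-Glu-CTC oligonucleotide. tsRNA-Glu-CTC is a fragment of the glutamate transfer RNA with anticodon CTC. The genes were chosen by symbol and were 9 of the 21706 genes in the expression table: Nfe2l2, which encodes NRF2, Keap1, which encodes its inhibitor, and the usual targets Nqo1, Gclc, Gclm, Txnrd1, Srxn1, Gsr and Hmox1. Hepatic mRNA was sequenced from male C57BL/6 mice that were 8 weeks old and received control oligonucleotides (control oligo, 4 libraries) or tsRNA-Glu-CTC Oligo-1 (oligo-1, 3 libraries) intraperitoneally for 2 weeks. According to the study, the mice of both groups were wild type, ate a low-cholesterol AIN76 diet and were injected every other day, and each library came from its own mouse. Whole liver RNA was used, so hepatocytes and all other liver cells contribute to each value. Expression was given as TPM, a share of each library corrected for transcript length, so levels of different genes can be set side by side. Sequencing depth is not kept by TPM and is unknown. All 9 genes passed the filter for testing, which asked for 1 TPM or more in 3 or more libraries.

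NRF2 is a transcription factor that answers oxidants and reactive chemicals. In unstressed cells, KEAP1 binds NRF2 and feeds it to a CUL3 ubiquitin ligase, so that the protein is destroyed as fast as it is made. When cysteines of KEAP1 are modified, NRF2 escapes, pairs with a small MAF protein and binds antioxidant response elements near its targets. Those targets make glutathione, reduce thioredoxin and oxidized cysteines, detoxify quinones and break down heme. The liver, which handles drugs, bile acids and gut products, is a main site of this response. Because NRF2 is controlled largely through its protein, the mRNA of its targets is a usual readout of its activity and the mRNA of Nfe2l2 alone is not.

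The core of the antioxidant response element, TGACNNNGC, was searched on both strands in RefSeq promoter windows of 300 bases (build GRCm38.p6, 250 bases before to 50 after the start site). The matches are shown because they mark which of these windows carry the letters through which NRF2 is known to act. Bases outside the windows were not searched, so a gene without a match may still carry the element. Windows were found for 6 members and not for Gclc, Gsr and Hmox1. Of the 6, 4 held a match (Nfe2l2, Gclm, Txnrd1 and Srxn1), while none was found in the windows of Nqo1 and Keap1. Of all genes with a window, 14.0% held the core. Among the other 66 pathway genes described below, 58 had a window and 16 of them (27.6%) held a match. Counted by window, since some genes have several, the core was in 4 of 8 windows of members, 22.9% of those of the pathway genes and 12.4% of all 32851. Capitals mark the 9 bases of the core, and each line is written 5′ to 3′ on the strand that reads TGACNNNGC. The last 4 lines give 4 of the 16 pathway genes with a match that are not members. They were chosen with expression values known, and Ugdh held another match that is not printed.
Nfe2l2, chr2:75704885-75704913, minus strand: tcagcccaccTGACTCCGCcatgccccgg
Gclm, chr3:122245413-122245441, minus strand: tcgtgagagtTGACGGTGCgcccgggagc
Txnrd1, chr10:82859104-82859132, minus strand: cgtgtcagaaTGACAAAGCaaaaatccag
Srxn1, chr2:152105542-152105570, minus strand: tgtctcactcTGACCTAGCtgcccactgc
Prdx1, chr4:116685456-116685484, minus strand: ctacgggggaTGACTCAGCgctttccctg
Ugdh, chr5:65435956-65435984, minus strand: gcggagcccgTGACTTAGCtggagctgat
Me1, chr9:86695902-86695930, minus strand: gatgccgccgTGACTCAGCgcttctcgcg
G6pdx, chrX:74428919-74428947, plus strand: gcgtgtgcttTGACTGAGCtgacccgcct
Counted along the strand of the gene, the core began 240 bases before the start site of Nfe2l2 and 134 bases before that of Gclm. It began 92 bases before the second listed start of Txnrd1 and at base 29 of the Srxn1 transcript. For Gclm, Txnrd1 and Srxn1, whose core reads on the opposite strand, this first base is the last of the printed capitals. Prdx1 and Me1 carried the same 9 letters, TGACTCAGC, whose opening TGACTCA is also the binding sequence of AP-1. A match is a description of these letters and not evidence of binding.

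The libraries did not form 2 even groups. Over the 10455 tested genes, controls 1 and 4 correlated at 0.988 with each other and at 0.928 to 0.947 with the other 5 libraries, which correlated at 0.965 to 0.987 among themselves. In 51.5% of the tested genes controls 1 and 4 both lay above the other 5 libraries. Trimmed-mean scaling, which lines up the bulk of genes between libraries, gave factors of 1.32 and 1.26 for controls 1 and 4 and of 0.823 to 0.984 for the others, and after it the share was 16.0%. Both lay below the others in 4.45% of tested genes and in none of the 9 members. Genes of the major urinary proteins took 1.44% and 1.63% of the listed TPM in these libraries and 8.45% to 12.7% elsewhere. Controls 1 and 4 are not a group of the study, and nothing in the labels sets them apart from controls 2 and 3. Fitted values of the 9 genes are therefore given with and without them, as are those of some of the other pathway genes.

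Nfe2l2 and Keap1, the factor and its inhibitor, overlapped between the treatments. Nfe2l2 (mm10 chromosome 2, 75675513 to 75704641) was at 42.5, 13.4, 20.8 and 36.4 TPM in controls 1 to 4 and at 20.3, 23.2 and 22.5 TPM in oligo-1 mice 1 to 3. The oligo-1 mice lay close together, below controls 1 and 4 and around control 3. Its log2 fold change was -0.22 (SE 0.35, 95% interval -1.01 to 0.58, limma adjusted p = 0.858), and without controls 1 and 4 it was 0.38 (SE 0.22, adjusted p = 0.636). Keap1 (chromosome 9, 21229730 to 21239361) varied least of the 9 genes among controls, at 22.9, 16.6, 16.4 and 20.4 TPM in controls and 16.0, 19.6 and 12.9 TPM with oligo-1. Controls 1 and 4 were again highest, but only 1.04 times above the nearest other library. After trimmed-mean scaling Keap1 was at 17.4 and 16.2 in controls 1 and 4 and spanned 15.2 to 20.2 in the other libraries, so the order did not hold. The log2 fold change of Keap1 was -0.23 (SE 0.21, adjusted p = 0.778), and -0.05 without controls 1 and 4.

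The balance of factor to inhibitor can be read within each library, where scaling between libraries cancels. The Nfe2l2 to Keap1 difference in log2(TPM + 1) was 0.87, -0.30, 0.33 and 0.81 in controls 1 to 4 and 0.33, 0.23 and 0.75 with oligo-1. Control 2 was the only library with less Nfe2l2 than Keap1, and oligo-1 replicate 3 was close to controls 1 and 4. The group means were 0.43 ± 0.54 (SD, n = 4) and 0.44 ± 0.28 (SD, n = 3), and the difference of 0.01 was far within the spread between mice (exact permutation test over 35 assignments of libraries, 2-sided p = 0.971, where 0.0286 is the smallest possible). Without controls 1 and 4 the difference was 0.42, from a control mean of 0.02 and an oligo-1 mean of 0.44.

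**Figure D1:**
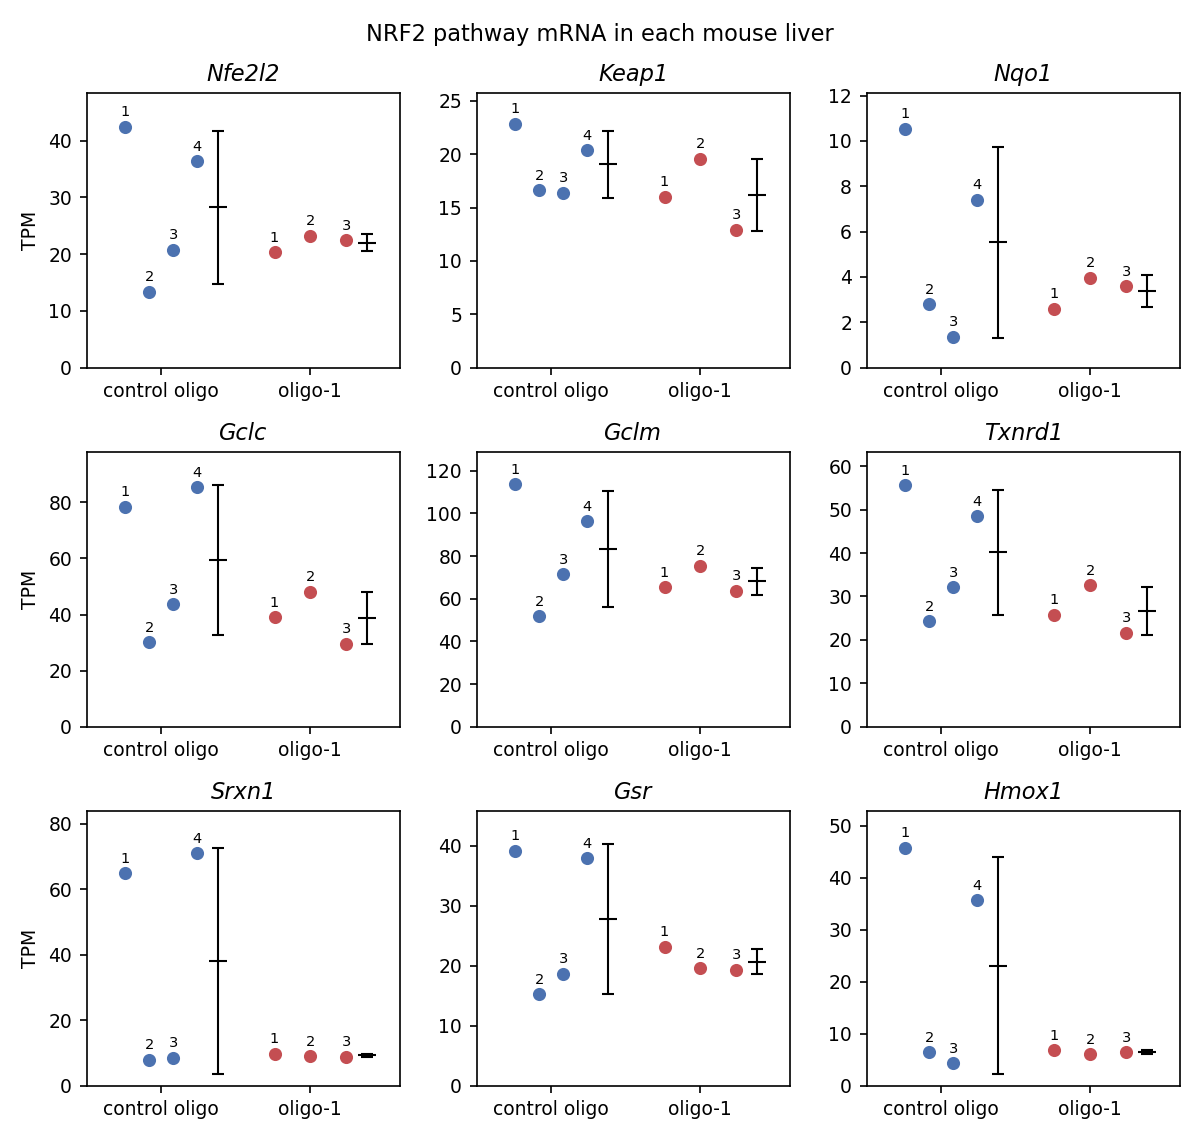
TPM of each of the 9 genes (y axis, linear from 0) in the 4 control oligo and 3 oligo-1 libraries (points, numbered by replicate), with the mean and SD of each group as a bar. Controls 1 and 4 lie above every other library in all 9 panels, by 1.04 times in Keap1 and 6.64 times in Srxn1.

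Glutathione genes showed the same order of libraries at intermediate size. Glutamate-cysteine ligase, the enzyme that limits glutathione synthesis, is built from a catalytic subunit (Gclc) and a modifier subunit (Gclm). Gclc (chromosome 9, 77754535 to 77794485) was at 78.4, 30.1, 43.6 and 85.3 TPM in controls and at 39.0, 48.1 and 29.6 TPM with oligo-1. The oligo-1 values lay around those of controls 2 and 3, and the lower of controls 1 and 4 was 1.63 times the highest of the other 5 libraries. The log2 fold change was -0.50 (SE 0.36, adjusted p = 0.775), and 0.07 without controls 1 and 4. Gclm (chromosome 3, 122245557 to 122270732), which overlaps a processed pseudogene and a transcript of the opposite strand, was the most abundant of the 9 genes, at 113.8, 51.9, 71.4 and 96.3 TPM in controls and 65.4, 75.5 and 63.7 TPM with oligo-1. Its spread was narrower than that of Gclc, and after trimmed-mean scaling control 4 was at 76.6, level with oligo-1 replicate 2 at 76.7. The log2 fold change was -0.23 (SE 0.26, adjusted p = 0.811), and 0.16 without controls 1 and 4.

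The 2 subunits did not keep a fixed ratio. Gclm exceeded Gclc in 7 of 7 libraries, by 1.45, 1.72, 1.64 and 1.13 times in controls 1 to 4 and by 1.68, 1.57 and 2.15 times with oligo-1. The lowest ratio was that of control 4 and the highest that of oligo-1 replicate 3. On the log2(TPM + 1) scale the mean ratio was 0.54 ± 0.27 (SD, n = 4) in controls and 0.82 ± 0.23 (SD, n = 3) with oligo-1. The difference of 0.27 was about the size of these SDs and was not unusual among the 35 assignments of libraries (exact permutation test, 2-sided p = 0.257). Without controls 1 and 4 the difference was 0.08.

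Gsr (chromosome 8, 33652523 to 33698163) encodes glutathione reductase, which returns oxidized glutathione to its working form. Values were 39.1, 15.3, 18.7 and 37.9 TPM in controls and 23.2, 19.5 and 19.3 TPM with oligo-1. Every oligo-1 value was above controls 2 and 3 and below controls 1 and 4. The log2 fold change was -0.30 (SE 0.33, adjusted p = 0.808) over all libraries and 0.27 (SE 0.19, adjusted p = 0.709) without controls 1 and 4.

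**Figure D2:**
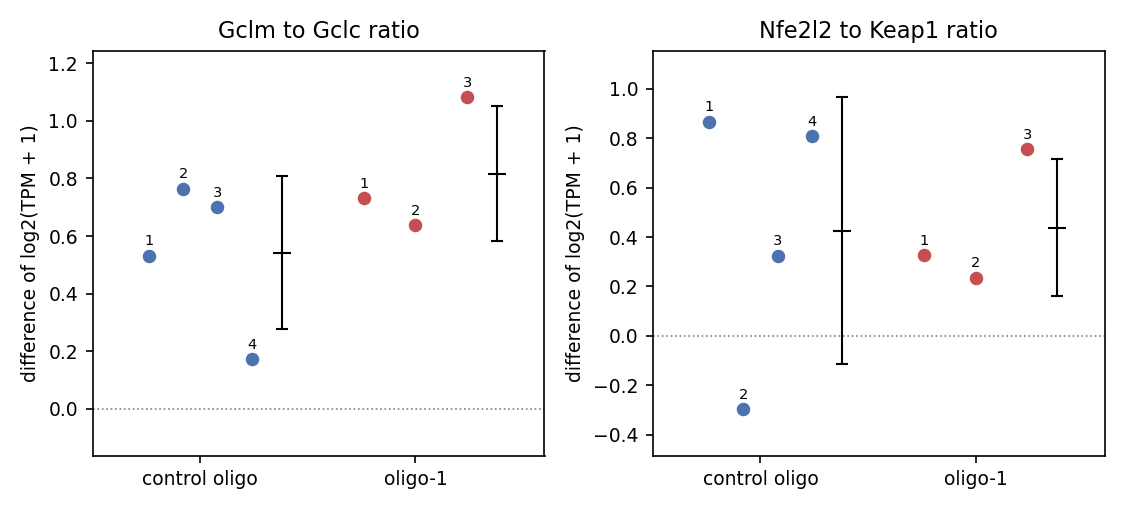
Within-library difference of log2(TPM + 1), Gclm minus Gclc (left) and Nfe2l2 minus Keap1 (right), in the 4 control oligo and 3 oligo-1 libraries (numbered points), with group mean and SD as bars. The groups overlap in both panels, at means of 0.54 and 0.82 and of 0.43 and 0.44.

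Srxn1 separated the libraries more widely than Txnrd1, the other member that serves thioredoxin and peroxiredoxins. Txnrd1 (chromosome 10, 82833951 to 82897712) encodes the cytosolic thioredoxin reductase, a selenoenzyme, and overlaps the protein-coding gene Eid3 on the same strand. Controls had 55.7, 24.4, 32.1 and 48.5 TPM and oligo-1 mice 25.8, 32.6 and 21.6 TPM, with oligo-1 replicate 3 the lowest of all. Among the 9 genes it had the smallest unadjusted p, yet its log2 fold change of -0.52 (SE 0.29, 95% interval -1.18 to 0.14) had an adjusted p of 0.768 by limma. Srxn1 (chromosome 2, 152105516 to 152111376) encodes sulfiredoxin, which repairs overoxidized peroxiredoxins. Controls 1 and 4 had 64.9 and 70.9 TPM, controls 2 and 3 had 7.94 and 8.54 TPM, and oligo-1 mice had 9.78, 9.03 and 8.88 TPM. The oligo-1 mice were nearly alike, while the highest control was 8.93 times the lowest. The oligo-1 mice were all slightly above controls 2 and 3 in TPM. After trimmed-mean scaling this order did not hold, with oligo-1 replicate 2 at 9.17 and control 2 at 9.65. Srxn1 had the largest fitted change of the 9 genes, -1.30 (SE 0.74, 95% interval -2.97 to 0.37, adjusted p = 0.768). Without controls 1 and 4 it was 0.15 (SE 0.18, adjusted p = 0.869).

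Hmox1 (chromosome 8, 75093621 to 75100589) encodes heme oxygenase 1, which opens the heme ring and is made by hepatocytes under stress and by liver macrophages that clear red cells. Its values were 45.8 and 35.7 TPM in controls 1 and 4, 6.48 and 4.29 TPM in controls 2 and 3, and 6.82, 6.06 and 6.42 TPM with oligo-1. As for Srxn1, the oligo-1 mice were alike and sat beside controls 2 and 3, and the controls spanned 10.7-fold. The log2 fold change was -1.12 (SE 0.71, 95% interval -2.71 to 0.47, adjusted p = 0.774) and turned to 0.24 (SE 0.22, adjusted p = 0.797) without controls 1 and 4. Hmox2, the constitutive heme oxygenase, did not set controls 1 and 4 apart. It ranged from 57.0 to 62.1 TPM across controls, and oligo-1 mice lay just below, between 49.3 and 55.2 TPM (log2 fold change -0.18, SE 0.15, adjusted p = 0.775).

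Nqo1 (chromosome 8, 107388225 to 107403206) encodes a quinone reductase and is among the most used readouts of NRF2. It was the least abundant of the 9 genes in every library, at 10.5, 2.81, 1.36 and 7.41 TPM in controls and 2.61, 3.98 and 3.59 TPM with oligo-1. The same libraries, controls 1 and 4, were highest here as well, and the oligo-1 values lay around control 2. The log2 fold change was -0.32 (SE 0.50, adjusted p = 0.853). Without controls 1 and 4 it was 0.54 (SE 0.27, 95% interval -0.08 to 1.16, adjusted p = 0.571), the largest of the 9 genes in that comparison.

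None of the 9 genes passed a test for a difference between oligo-1 and control oligo. The fitted log2 fold change was below 0 in 9 of 9, where 73.6% of all tested genes were below 0, and the median was -0.32 against -0.16 for all tested genes. limma called 0 of the 9 genes at an adjusted p below 0.05, as it did for 0% of all 10455 genes. With an unadjusted p below 0.05, 0 members were higher and 0 lower, against 1.81% and 4.25% of all genes. The study called genes by edgeR at over 1.5-fold and an unadjusted p under 0.01. The same cut applied to the limma fit likewise took in 0 members, against 0.641% of all genes higher and 0.832% lower. No member had all oligo-1 values above all controls or below them, as 2.00% and 4.98% of all genes did. The intervals remained wide: that of Srxn1 ran from -2.97 to 0.37 and that of Hmox1 from -2.71 to 0.47 on the log2 scale, so the data do not show equal expression.

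The direction of most fitted values rested on controls 1 and 4. Without these 2 libraries, 7 of the 9 genes had a fitted value above 0 and Keap1 (-0.05, SE 0.21) and Txnrd1 (-0.09, SE 0.22) remained below, with a median of 0.16 against 0.06 for all genes. Here too limma called 0 of 9 at an adjusted p below 0.05 (0.00956% of all genes), and 0 of 9 at an unadjusted p below 0.05, where 6.97% of all genes were higher and 2.75% lower. After trimmed-mean scaling of all 7 libraries the 9 fitted values stayed below 0, with a median of -0.13 against 0.02 for all genes. In 7 of 9 genes controls 1 and 4 then both lay above the other 5 libraries (16.0% of all genes), the exceptions being Keap1 and Gclm.

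**Figure D3:**
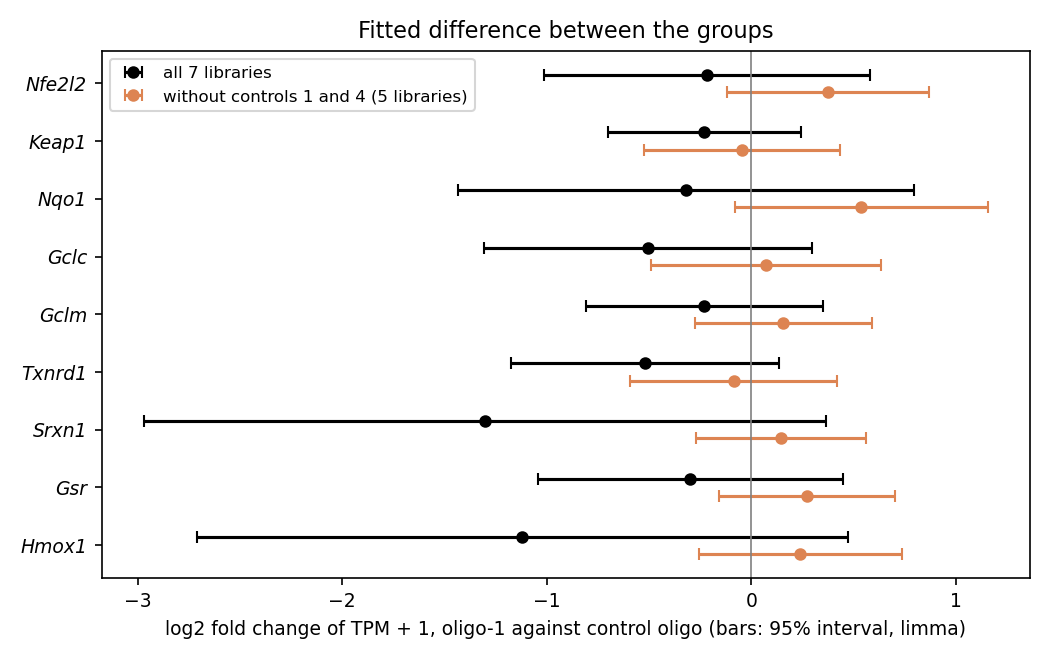
Fitted log2 fold change (x axis) with its 95% interval for each of the 9 genes, from all 7 libraries (black) and from the 5 libraries left without controls 1 and 4 (orange). All intervals cover 0, and 7 of 9 estimates change sign.

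The order of levels among the 9 genes also differed between libraries. Taking medians over the 7 libraries, Gclm (71.4 TPM) was followed by Gclc (43.6), Txnrd1 (32.1), Nfe2l2 (22.5), Gsr (19.5), Keap1 (16.6), Srxn1 (9.03), Hmox1 (6.48) and Nqo1 (3.59). Gclm and Gclc ranked at the top and Nqo1 at the bottom in all 7 libraries. In the middle, Nfe2l2 exceeded Gsr in 4 of 7 libraries and Gsr exceeded Keap1 in 5 of 7, so these neighbours could not be ordered. Srxn1 had rank 3 in controls 1 and 4, above Txnrd1, and rank 7 in the other 5 libraries. The variation among controls was large relative to other genes for Hmox1 and Srxn1, whose range over the 4 controls was wider than in 98.9% and 98.6% of tested genes, and small for Keap1 (18.1%). Among the oligo-1 mice the picture was the opposite, with Srxn1 and Hmox1 at percentiles of 8.17 and 11.4 and Keap1 at 75.0.

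Other genes of the pathway were counted in 7 lists of 66 genes, of which 63 were tested. limma called none at an adjusted p below 0.05, and 3 were higher and 6 lower at an unadjusted p below 0.05, where 1.81% of all genes were higher and 4.25% lower. The median log2 fold change was -0.18, close to the -0.16 of all genes. In 34 of the 63 genes controls 1 and 4 both lay above the other libraries (51.5% of all genes), and in 17 after trimmed-mean scaling (16.0% of all genes). All oligo-1 values were above all controls in 5 of the 63 and below them in 7, against 2.00% and 4.98% of all genes. The lists were chosen with earlier results of these data known. Among the genes that the study itself reported as changed by edgeR were Me1, Tkt, Gpx3, Abcc3, Gsta4, Cbr3 and Slc40a1 of these lists.

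Partners and regulators of NRF2 did not pass the test. None of the 10 tested passed an unadjusted p below 0.05, and the fitted values of smallest p were those of Sqstm1 (-0.66, SE 0.43), Gsk3b (-0.30, SE 0.20), Nfe2l1 (-0.19, SE 0.17) and Maff (-0.35, SE 0.32), with oligo-1 below all controls for Gsk3b. Without controls 1 and 4, Sqstm1 was at 0.16 and Maff at -0.81 (SE 0.25, adjusted p = 0.345), and Maff was then lower at an unadjusted p below 0.05. Sqstm1, which encodes p62, a cargo receptor that sequesters KEAP1 and is itself an NRF2 target, reached 584.6 and 563.3 TPM in controls 1 and 4 but only 179.7 to 216.2 TPM in the other 5 libraries. Of the small MAF partners, Mafk reached 13.9 and 11.8 TPM in controls 1 and 4 and 5.63 to 9.07 TPM elsewhere, whereas Mafg stayed at 32.8 to 48.9 TPM and Maff was highest in controls 2 and 3, at 18.6 and 13.2 TPM. Bach1, a repressor at the same elements, held between 6.11 and 7.14 TPM in all 7 libraries.

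Glutathione synthesis and peroxidase genes were 8 tested of 10, with a median of -0.25. Gpx1, the abundant cytosolic glutathione peroxidase, ranged from 2474 to 3903 TPM across controls and from 1493 to 2325 TPM in oligo-1 mice, without overlap (log2 fold change -0.73, SE 0.21, adjusted p = 0.605), and was at -0.51 without controls 1 and 4. Like Gpx1, Gpx3 (-1.19, SE 0.47), Gss (-0.75, SE 0.43) and Gpx4 (-0.39, SE 0.31) had values in controls 1 and 4 above all others. Gpx1 and Gpx3 were the 2 genes of the list that were lower at an unadjusted p below 0.05 (4.25% of all genes). In the fit without controls 1 and 4, Gpx3 was at -0.41 and no longer passed, Gss was at 0.03 and Gpx4 at 0.17. Gss, the glutathione synthetase, was at 87.0 and 88.9 TPM in those libraries and 25.1 to 39.0 TPM in the rest. Slc7a11, the cystine importer and a known NRF2 target, was below the filter, with 1.58 and 0.95 TPM in controls 1 and 4 but at most 0.03 TPM elsewhere.

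In the list of thioredoxins and peroxiredoxins 0 of 10 were past an unadjusted p of 0.05, with a median of -0.15. The smallest p values belonged to Txn2 (-0.20, SE 0.15), Prdx6 (-0.25, SE 0.21), Prdx1 (-0.24, SE 0.23) and Txnrd2 (0.18, SE 0.18). Leaving out controls 1 and 4 gave -0.11 for Txn2, -0.42 for Prdx6, 0.12 for Prdx1 and 0.22 for Txnrd2. Prdx1, a peroxiredoxin whose promoter match is printed above, reached 977.9 and 958.9 TPM in controls 1 and 4 and 511.8 to 689.7 TPM elsewhere. After scaling none of the 10 had controls 1 and 4 above the rest (16.0% of all genes).

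Detoxification and export genes gave 3 lower members of 18 tested at an unadjusted p below 0.05, where 4.25% of all genes were lower, and a median of -0.42. Abcc3, an exporter of conjugates, ranged from 16.7 to 30.1 TPM across controls and from 9.80 to 11.4 TPM in oligo-1 mice (-0.94, SE 0.24, adjusted p = 0.450). Cbr1 (-0.60, SE 0.18) and Gsta4 (-0.97, SE 0.34) likewise had all oligo-1 values below all controls, and Cbr3 (-1.49, SE 0.68) did not. Controls 1 and 4 were the highest libraries for Abcc3, Cbr1, Gsta4 and Cbr3. Without controls 1 and 4, Abcc3 was at -0.61, Cbr1 at -0.52, Gsta4 at -0.41 and Cbr3 at -0.21, and Gsta4 no longer passed an unadjusted p of 0.05. Gstm3, a glutathione S-transferase, reached 397.9 and 334.0 TPM in controls 1 and 4 against 20.8 to 45.5 TPM elsewhere. Ugdh, which makes UDP-glucuronate, was at 120.8 and 109.7 TPM against 20.9 to 33.3 TPM. Without controls 1 and 4, Gstm3 moved from -1.58 to 0.40 and Ugdh from -0.97 to 0.07. In that fit 1 gene of the list was higher and 3 were lower at an unadjusted p below 0.05 (6.97% and 2.75% of all genes). Gstm4 (0.56, SE 0.24) and Ces1g (-0.57, SE 0.19) passed only there. Members of the Gstm family share sequence, so their single values are uncertain.

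Genes of NADPH supply included some with higher values after oligo-1. NADPH is the electron source of Gsr, Txnrd1 and Nqo1, and of lipid synthesis. Of 6 tested genes 3 were higher at an unadjusted p below 0.05 (1.81% of all genes) and 0 lower, none at an adjusted p below 0.05, and the median was 0.44. Me1, malic enzyme, ranged from 28.1 to 61.5 TPM across controls and from 91.5 to 130.5 TPM in oligo-1 mice (1.55, SE 0.28, adjusted p = 0.202). G6pdx (1.25, SE 0.33) and Tkt (0.65, SE 0.26) also had all oligo-1 values above all controls, while Idh1 (0.22, SE 0.17) overlapped. The values without controls 1 and 4 were 1.34 for Me1, 1.64 for G6pdx, 0.95 for Tkt and 0.22 for Idh1. Pgd moved from -0.01 (SE 0.46) to 0.82 (SE 0.23) without them. Controls 1 and 4 were not the highest libraries for Me1 and G6pdx. Among controls alone, G6pdx was higher in controls 1 and 4 (3.78 and 4.28 TPM) than in controls 2 and 3 (1.38 and 2.63 TPM). The promoter matches of both genes are among those picked for printing above, and a part of NRF2 in these values was not tested.

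Among 7 genes of heme breakdown and iron storage, Slc40a1, the iron exporter ferroportin, was lower with oligo-1 without overlap (-0.91, SE 0.27, adjusted p = 0.605; -0.53 without controls 1 and 4). Slc40a1 was highest in controls 1 and 4, at 55.8 and 62.2 TPM. Blvrb (0.31, SE 0.17), Slc48a1 (-0.53, SE 0.39) and Fth1 (-0.23, SE 0.17) did not pass an unadjusted p of 0.05, although oligo-1 mice were above all controls for Blvrb. Blvrb was at 0.36, Slc48a1 at 0.16 and Fth1 at -0.04 without controls 1 and 4. Slc48a1, a heme transporter, reached 33.2 and 32.0 TPM in controls 1 and 4 and 11.2 to 14.3 TPM elsewhere. Of superoxide dismutases and catalase, 0 of 4 passed an unadjusted p of 0.05: Sod1 (0.26, SE 0.14), Sod3 (-0.44, SE 0.39), Cat (0.15, SE 0.21) and Sod2 (-0.04, SE 0.21). Oligo-1 mice were above all controls for Sod1. Sod1 was at 0.12, Sod3 at 0.24, Cat at -0.12 and Sod2 at -0.21 without controls 1 and 4.

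**Figure D4:**
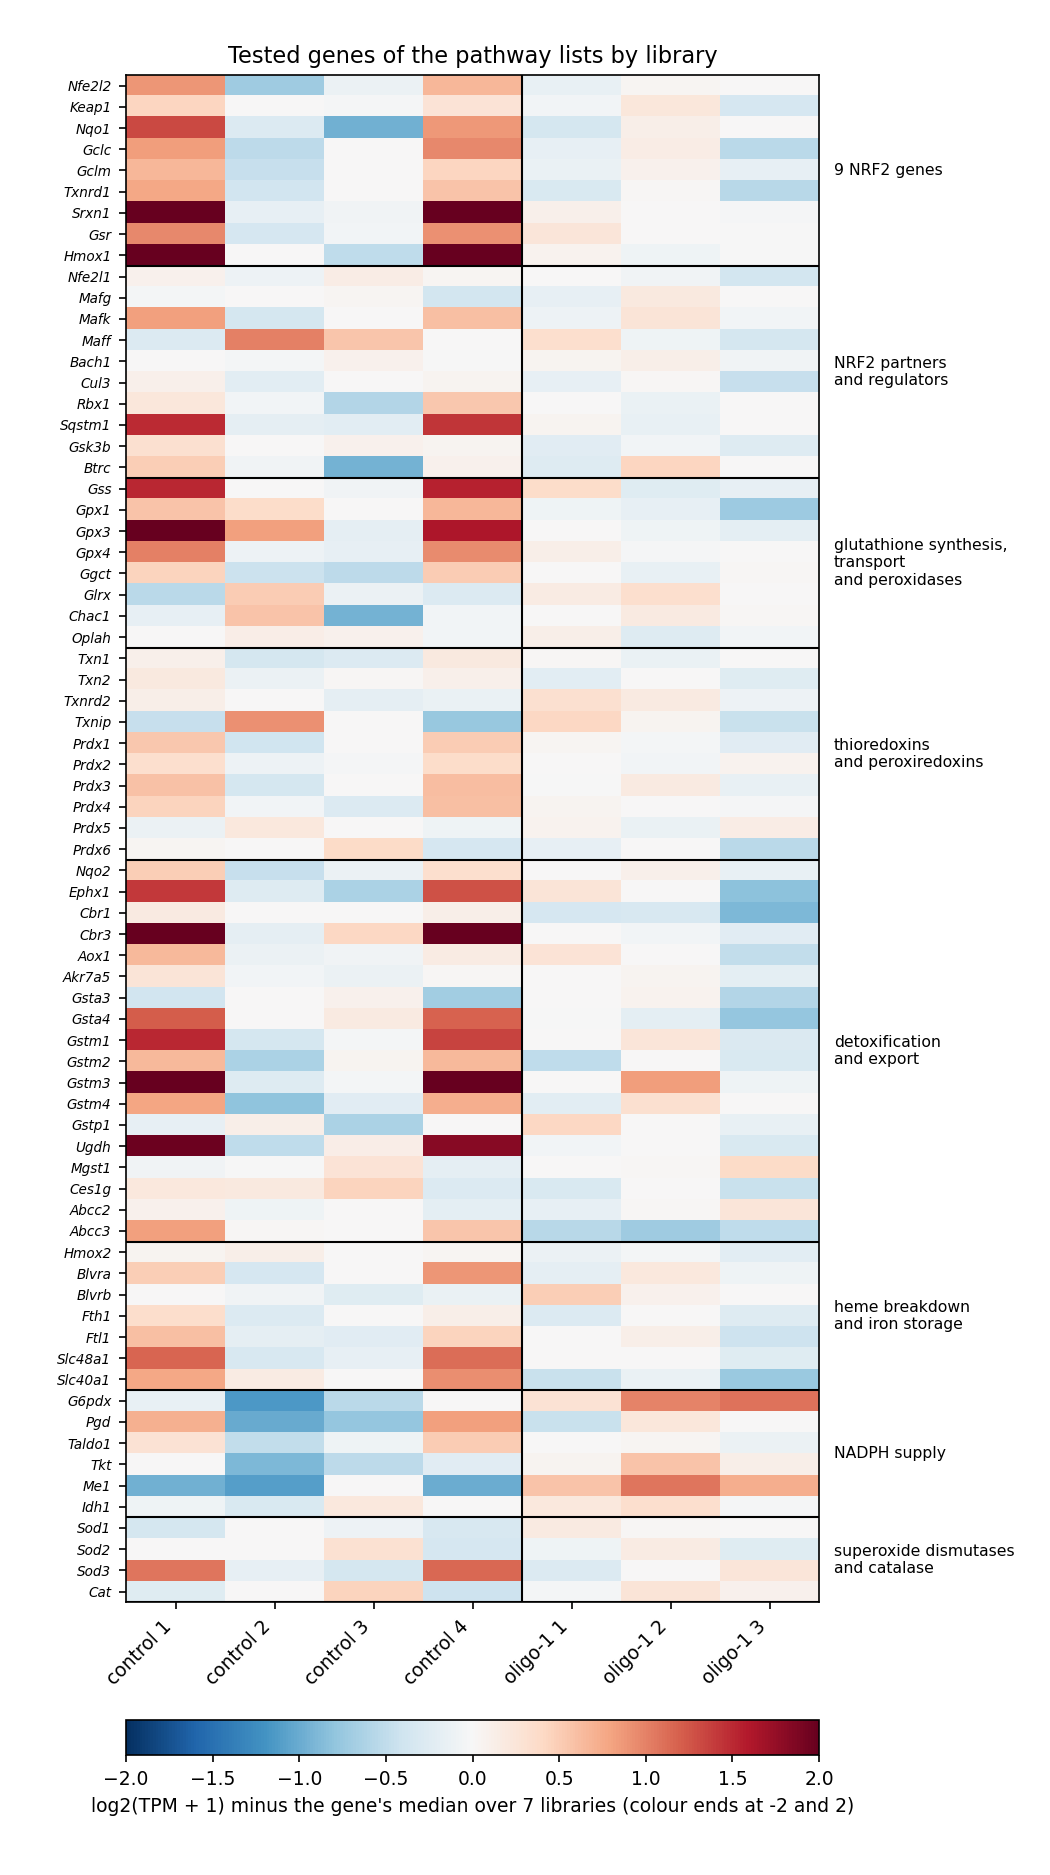
Colour gives log2(TPM + 1) of each tested gene minus its median over the 7 libraries, for the 9 genes and the 63 tested genes of 7 pathway lists (rows) in each library (columns, controls left of the line). Controls 1 and 4 are red in most rows of the 9 genes, and the rows of Me1, G6pdx and Tkt are red with oligo-1.

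Markers of some other liver cells moved with controls 1 and 4. Hepatocyte markers were dominant in all libraries, with Alb between 32510 and 47100 TPM, and their sum overlapped between control oligo (75490 to 90110 TPM) and oligo-1 (73240 to 87410 TPM). Single markers differed: with oligo-1, Ahsg (-0.64, SE 0.19) was below all controls and Ttr (0.31, SE 0.13) above them. Over all genes 4.98% were below and 2.00% above. Controls 1 and 4 were the highest libraries for Ahsg. In 10 of 10 markers of Kupffer cells and macrophages controls 1 and 4 lay above the other 5 libraries, also after scaling (51.5% of all genes before and 16.0% after). Their summed level was 576.7 and 726.8 TPM in controls 1 and 4, 91.6 and 79.2 TPM in controls 2 and 3 and between 100.8 and 130.0 TPM in oligo-1 mice, and none of these markers was at 0 in any library. Stellate cell markers summed to 328.7 and 304.8 TPM in controls 1 and 4 and 86.1 to 99.8 TPM elsewhere. Dcn made up most of these sums (257.4 and 209.5 TPM in controls 1 and 4), and Acta2 did not set these 2 libraries above the rest. Red cell genes summed to 384.6 and 1003 TPM against 83.3 to 170.0 TPM. The 4 hemoglobin genes of that list were highest in controls 1 and 4, whereas Alas2, the heme synthesis enzyme of red cell precursors, was lowest there, at 23.7 and 20.4 TPM against 28.6 to 38.4 TPM. The summed sinusoidal endothelial markers overlapped (65.4 to 105.4 TPM under control oligo, 83.2 to 100.9 TPM under oligo-1), but the 6 genes went both ways. Lyve1 (-1.42, SE 0.42) and Pecam1 (-0.30, SE 0.22) were fitted lower, with controls 1 and 4 highest. The other 4 were fitted higher. Cholangiocyte markers were at 52.5 and 52.2 TPM in controls 1 and 4, 54.5 TPM in oligo-1 replicate 3 and 22.3 to 25.1 TPM in the rest, with Krt19, Krt7 and Epcam at 0 in control 3 and above 0 in the others. Spp1 alone made up most of these sums, at 48.0 and 47.6 TPM in controls 1 and 4 and 49.4 TPM in oligo-1 replicate 3. Neutrophil markers were low (1.30 to 15.8 TPM), with Retnlg at 0 in control 4 and oligo-1 replicate 2 and Ly6g at 0 in all but oligo-1 replicate 3. The part of these cells in the values of Hmox1, Srxn1 and the other members was not tested. In whole liver, more cells of a type and more RNA per cell cannot be told apart.

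**Figure D5:**
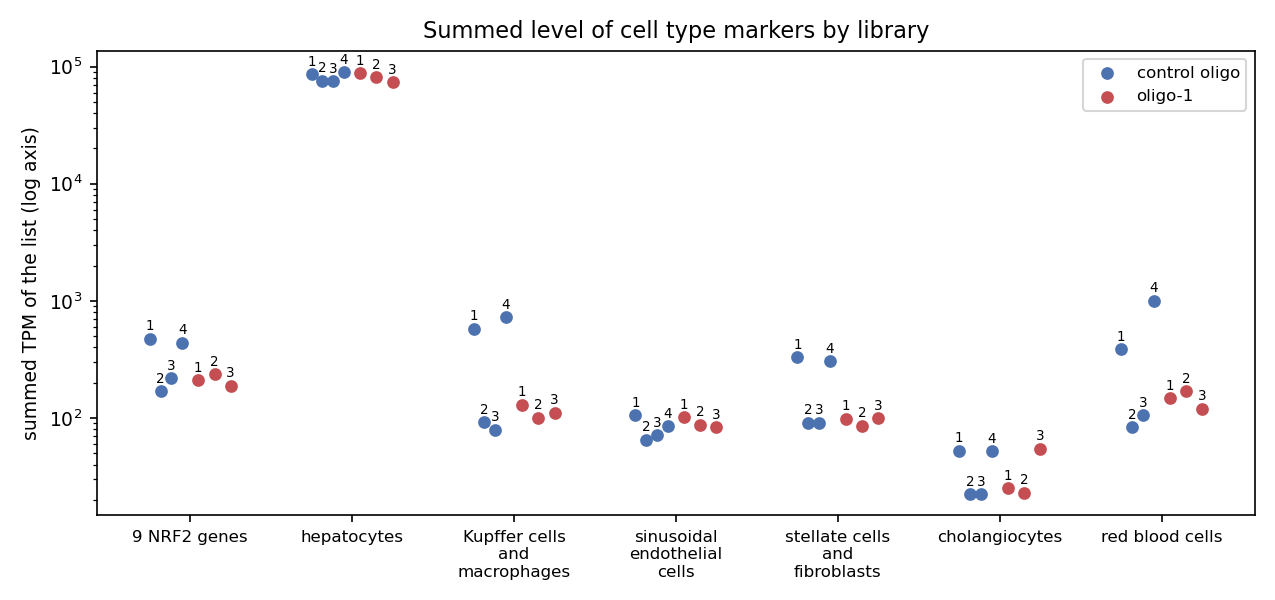
Summed TPM (log axis) of the 9 genes and of 6 cell type marker lists in each library (points numbered by replicate, control oligo blue, oligo-1 red). Controls 1 and 4 are highest for the 9 genes, for Kupffer cells and macrophages (576.7 and 726.8 TPM), for stellate cells and for red blood cells.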

How the data were processed

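The authors extracted RNA with TRIzol and made Illumina libraries. The deposited values are TPM, for which the authors quantified protein-coding genes with kallisto (version not given in the sources used here; build mm10 in the submitters' processing notes), 1 column per mouse. No scaling between libraries is stated. The columns summed to 85.8% to 88.3% of the TPM total. Precision is limited by 4 and 3 mice.

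Values were tested as log2(TPM + 1), which understates changes of low genes, over the 10455 genes that reached 1 TPM in 3 or more libraries. limma-trend (limma 3.58.1, R 4.3.3; 2-sided, no covariates) compared oligo-1 with control oligo, in place of the authors' edgeR, which needs counts. Benjamini-Hochberg adjustment covered all tested genes. The procedure was tested on simulated data with independent noise for each gene, which do not copy the shared difference of controls 1 and 4. Within-library ratios were tested by exact permutation. Alternatives were a pseudocount of 0.1, no filter, trimmed-mean scaling, leaving out libraries, a replicate block and limma without the trend. Members, gene lists and the omission of controls 1 and 4 were chosen with earlier results of these data known. All 9 members were named, and in each pathway list up to 4 genes of smallest p; other named genes were chosen after their values were seen. Gene positions are from GENCODE M21 (mm10) and promoter windows from RefSeq. Overlapping and antisense genes cannot be told apart, since strandedness is not stated. The hepatocyte marker list was analysed for 7 of its 8 genes. A further marker list is not reported here.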

Additional observations from a re-analysis of the deposited data

Results flagged for a closer look

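Me1, malic enzyme, had a lone high value among the controls: 61.5 TPM in control 3 against 28.1 TPM in control 2, 30.4 TPM in control 4 and 31.1 TPM in control 1. The gap to the nearest control took up 0.908 of the range of the 4 controls, above Dixon's critical value for a group of 4. It was the only one of 39 groups of control values so marked, where chance marks about 5%.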

How the results depend on the processing

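All 9 genes stayed uncalled at an adjusted p below 0.05 in every alternative run, with adjusted p from 0.286 to 1. Their median log2 fold change of -0.32 was -0.13 after trimmed-mean scaling, -0.60 to -0.14 with single libraries left out and 0.158 without controls 1 and 4. Of 117 pairs of a member and an alternative, 108 kept the direction and 9 changed it. Beside the 9 genes, only the up to 4 genes of smallest p in each list were followed through all these runs. Without controls 1 and 4 the values turned to 0.378 (Nfe2l2), 0.539 (Nqo1), 0.0727 (Gclc), 0.158 (Gclm), 0.147 (Srxn1), 0.273 (Gsr), 0.24 (Hmox1), 0.162 (Sqstm1), 0.0259 (Gss), 0.166 (Gpx4), 0.123 (Prdx1), 0.165 (Slc48a1), 0.245 (Sod3) and -0.124 (Cat). After trimmed-mean scaling those of Nfe2l1 (0.0102), Txn2 (0.01) and Sod2 (0.154) turned. With single libraries left out, Nfe2l2 ran from -0.515 to 0.0179 and Nqo1 from -0.721 to 0.0426, both highest without control 1, and Sod2 from -0.157 to 0.0603. The Nfe2l2 to Keap1 difference then ran from -0.228 (without control 2) to 0.159. Without controls 1 and 4 together it was 0.423, of all runs the furthest from the 0.0125 of all 7 libraries.

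Counts moved more. At an unadjusted p below 0.05, 0 to 3 of the 9 genes were lower with single libraries left out: Gclc (-0.78), Txnrd1 (-0.73) and Srxn1 (-1.80) without control 2, and Srxn1 (-1.77) and Hmox1 (-1.66) without control 3. Over all genes 189 higher became 557 after scaling, 729 without controls 1 and 4 and 111 to 279 with single libraries left out. The count higher was 327 without the filter, but 17562 genes were then tested in place of 10455. The 444 lower became 287 without controls 1 and 4 and 185 to 1520 with single libraries left out, highest without control 2. Genes called at an adjusted p below 0.05 were 1 without controls 1 and 4 and 0 to 29 with single libraries left out, 29 without control 3, when Me1 was called at 1.81. The cause was not tested.

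Replicate numbers were shared in name only: deviations of same-numbered mice correlated at 0.0777, -0.0154 and -0.115, and not every mouse correlated best with its own number. With the number as a replicate block, in which control 4 has no partner, 86 genes were called, Me1 (1.48) among them, and 1 of the 9 genes, Srxn1 (-0.798), was lower at an unadjusted p below 0.05. The unknown depth and 3 oligo-1 mice limit what could be detected.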

Other observations

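Srxn1 and Hmox1 stood near the top of all genes that were higher in controls 1 and 4. In 5386 tested genes both of these libraries lay above the other 5, with a median step of 1.24 times between the lower of the 2 and the highest of the rest. The step was 6.64 times for Srxn1 and 5.23 times for Hmox1, which ranked 24 and 51 by its size. After trimmed-mean scaling the steps were 4.67 and 3.60 times. Nqo1 (1.86 times), Gsr (1.63), Gclc (1.63), Nfe2l2 (1.57) and Txnrd1 (1.49) were above the median step, Gclm (1.28) was near it and Keap1 (1.04) was below it. Among the other pathway genes Gstm3, a glutathione S-transferase, had a step of 7.34 times and Cbr3, a carbonyl reductase, of 6.48 times.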
